A study of Mus musculus with 2 samples.

Results

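Dividing keratinocytes of the mouse palatal gingiva were described in 2 scRNA-seq libraries. They were the barcodes with at least 800 detected genes in which Krt5 and Krt14, the keratin pair of the basal epithelial layer, held at least 1% of the UMIs (unique molecular identifiers, each standing for 1 captured RNA molecule), and in which Mki67, Top2a, Cenpf, Cdc20, Ccnb1 and Ube2c, genes of chromosome condensation and mitosis, together had at least 10 UMIs. These measured values chose the cells, so the levels of the 6 genes are a description of the choice. In all, 225 of 8235 barcodes met the rule, 162 in the CpG ODN library and 63 in the LPS library, out of 3272 and 769 keratinocytes that passed the keratin criterion. They were compared with the keratinocytes that had 0 UMIs of the 6 genes, 2374 and 496 cells, called the other keratinocytes here.

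Both libraries came from female C57BL/6 wild type mice aged 8 to 12 weeks. CpG ODN, a synthetic DNA that is a ligand of TLR9, or *P. gingivalis* LPS, a ligand of TLR2/4, was placed on the palate (3 µl of 1 µg/ml) under an oral appliance for 1 h, and the gingiva was taken on day 4. Both groups thus shared the appliance, the anatomical site and the dissociation with collagenase II and trypsin, and a library without a ligand was not analysed here. Cells of 4 mice, 2000 to 3000 from each, were combined into 1 library per ligand before capture, so the mice cannot be told apart, there is no replicate and no test, and the ligand and the library cannot be told apart. Every interval given is a 95% interval of counting error and covers neither mice nor cells.

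The stratified epithelium of the gingiva and the hard palate renews itself from the basal layer, where cells are anchored to the basement membrane by hemidesmosomes that contain Col17a1. Cells that leave it exchange the basal keratins for keratins of the upper layers, among them Krt76 and Krt10 in the palate, and ordinarily stop dividing on the way. A dividing cell copies its DNA in S phase with the MCM helicase, PCNA and the enzymes that make nucleotides, and then turns on a late set of genes for the mitotic cyclins, the spindle and the kinetochores, which the anaphase-promoting complex with Cdc20 and Ube2c takes apart at the end of mitosis.

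The late set is known to be transcribed through a pair of short promoter elements, the cell cycle homology region (letters TTTGAA) and CCAAT boxes. The promoter windows of Cdc20, Cenpf, Ube2c and Ccnb1 are shown because these genes chose the cells and because they show the pair (Cdc20, Cenpf, Ube2c) and CCAAT without TTTGAA (Ccnb1). Each window runs from 250 bases before to 50 bases after the RefSeq start on build GRCm38.p6, 5′ to 3′ on the strand of the gene, with capitals marking TTTGAA and CCAAT on either strand (the reverse strand reads TTCAAA and ATTGG). The windows are chr4:118437294-118437593 (minus strand) for Cdc20, chr1:189688037-189688336 (minus) for Cenpf, chr2:164769679-164769978 (plus) for Ube2c and chr13:100786437-100786736 (minus) for Ccnb1.
Cdc20: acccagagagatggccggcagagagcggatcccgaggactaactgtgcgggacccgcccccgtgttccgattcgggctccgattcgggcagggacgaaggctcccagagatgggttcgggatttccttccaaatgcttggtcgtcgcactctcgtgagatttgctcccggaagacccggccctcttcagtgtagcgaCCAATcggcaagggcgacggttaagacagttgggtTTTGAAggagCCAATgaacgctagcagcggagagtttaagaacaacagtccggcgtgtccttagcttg
Cenpf: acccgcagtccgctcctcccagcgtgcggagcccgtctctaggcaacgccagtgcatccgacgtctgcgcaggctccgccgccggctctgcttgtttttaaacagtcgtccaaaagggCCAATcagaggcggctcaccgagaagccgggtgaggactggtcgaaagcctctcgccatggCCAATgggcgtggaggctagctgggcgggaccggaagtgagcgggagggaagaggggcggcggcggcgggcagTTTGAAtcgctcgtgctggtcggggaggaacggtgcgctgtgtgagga
Ube2c: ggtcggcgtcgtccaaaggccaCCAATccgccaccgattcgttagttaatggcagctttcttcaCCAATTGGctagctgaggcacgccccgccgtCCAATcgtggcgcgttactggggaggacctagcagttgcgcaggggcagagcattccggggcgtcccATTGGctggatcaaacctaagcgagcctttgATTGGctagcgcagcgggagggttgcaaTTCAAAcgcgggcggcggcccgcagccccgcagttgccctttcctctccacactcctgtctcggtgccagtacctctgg
Ccnb1: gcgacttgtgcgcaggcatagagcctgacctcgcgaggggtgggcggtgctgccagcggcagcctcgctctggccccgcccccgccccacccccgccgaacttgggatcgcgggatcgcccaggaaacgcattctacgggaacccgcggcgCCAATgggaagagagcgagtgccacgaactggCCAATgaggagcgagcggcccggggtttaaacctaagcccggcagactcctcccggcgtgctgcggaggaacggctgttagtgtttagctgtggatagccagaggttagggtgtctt

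Among the 7 genes made of the 6 chosen genes and Hmmr, 6 had TTTGAA in the window and 7 had CCAAT. The first TTTGAA lay 18 bases before the start in Cdc20, at base 3 after the start in Cenpf and 29 bases before it, on the reverse strand, in Ube2c. TTTGAA was found in 48 of the 74 genes of the mitosis lists with a window (64.9%) and in 7 of the 45 genes of the replication and entry lists (15.6%), while 20.2% of all 27025 genes with a window had it. CCAAT, which can share at most 1 end base with TTTGAA, was found in 66.2% of the mitosis genes, 62.2% of the replication and entry genes and 41.1% of all genes. The letters GGCGGGAA, one form of the E2F element of early genes, were found in 2.70%, 15.6% and 2.52%. A match of letters describes the window and does not show a site in use, and no match says only that these letters are not in these 300 bases.

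The CpG ODN library held 72173148 UMIs and the LPS library 38656738. The dividing cells had a median of 15553 UMIs (range 4943 to 101989) after CpG ODN and 25259 UMIs (10471 to 119207) after LPS, against medians of 12578 and 24398 in the other keratinocytes. Their median share of mitochondrial UMIs was 4.82% and 5.76%. Because the rule asks for a fixed number of UMIs, it finds more cells where cells hold more UMIs, and the share of dividing cells is given at the measured and at an equal depth. Other shares of cells are at the measured depth unless thinning is named, and the deeper LPS cells show a UMI more readily. The libraries shared 5 barcode sequences, and 0 of them were dividing keratinocytes. Doublets were kept, since the Scrublet caller marked only 0.348% and 0.235% of the cells, 3 and 0 of them dividing keratinocytes, too few to have worked as a caller.

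Dividing cells made up 4.95% (4.23 to 5.75) of the keratinocytes after CpG ODN and 8.19% (6.35 to 10.4) after LPS, and these counting intervals did not overlap. With every keratinocyte thinned to 10000 UMIs, the expected shares were 5.11% of 2230 cells and 6.04% of 739 cells, with 1042 and 30 shallower cells left out. With a threshold that scaled with the UMIs of the cell (0.05% of its UMIs in the 6 genes), 235 and 60 cells passed, or 7.18% and 7.80% of the keratinocytes. The LPS library was the higher in each of these settings, and the gap was narrower at equal depth than at the measured depth. The thinned shares rest on 114 and 44.7 expected dividing cells. Intervals were not computed for the thinned and scaled shares, so a gap beyond counting error was read only at the measured depth. Of all cells with 800 genes, the dividing keratinocytes were 3.31% and 4.93%, shares that also move with how many cells of other kinds were captured.

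The threshold fell on a slope without a gap. The sum of the 6 genes had a median of 40.5 UMIs (quartiles 17 and 80.75, highest 234) after CpG ODN and 27 UMIs (quartiles 17 and 112, highest 272) after LPS. Just outside, 37 and 13 keratinocytes had 8 or 9 UMIs, with 835 and 616 CPM (UMIs of the gene in each 1000000 UMIs of the summed cells) of Col17a1 and 2780.4 and 2163 CPM of Krt76. Just inside, 11 and 6 cells had 10 or 11 UMIs, with 724 and 1362 CPM of Col17a1 and 2814 and 884 CPM of Krt76. The Ccnb2 level of these groups was 120.3 and 16.5 CPM outside and 75.9 and 12.1 CPM inside, so cells on either side of the threshold after CpG ODN carried the mitotic cyclin, and few of its UMIs were seen near the threshold after LPS.

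**Figure D1:**
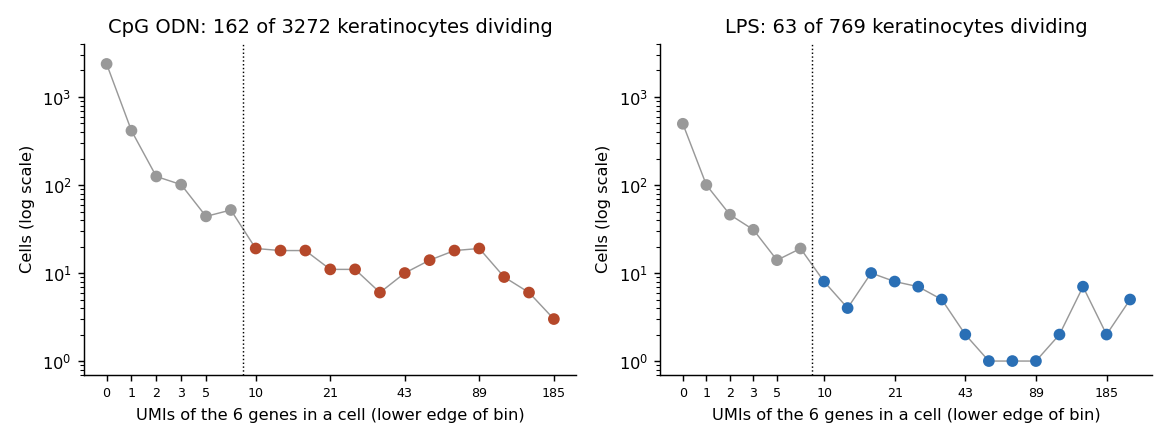
Number of keratinocytes (log axis) by the UMIs of the 6 cell cycle genes in the cell, for the CpG ODN and the LPS library, with a dotted line at the threshold of 10 UMIs. A bin without a cell has no point. No gap in the number of cells marks the threshold in either library, and the sums reach 234 and 272 UMIs.

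All 6 genes had a UMI in 94 of the 162 cells (58.0%) after CpG ODN and in 28 of 63 (44.4%) after LPS. Mki67, which coats mitotic chromosomes, had a UMI in 98.1% and 98.4% of the dividing cells and levels of 685 and 519 CPM. Cenpf, a protein of the outer kinetochore, was at 753 and 481 CPM and in 92.6% and 98.4% of the cells. Top2a, the topoisomerase that untangles sister chromatids, was at 520 and 394 CPM and in 77.8% and 66.7% of the cells. The genes of mitotic exit and of the mitotic cyclin were Ube2c with 567 and 468 CPM, Cdc20 with 399.6 and 371 CPM and Ccnb1, the cyclin of Cdk1, with 251 and 213 CPM. These 3 had a UMI in 80.2%, 88.3% and 84.6% of the CpG ODN cells and in 76.2%, 74.6% and 68.3% of the LPS cells. Hmmr, a spindle-pole protein that the rule did not use, was at 233 and 162 CPM and had a UMI in 77.2% and 66.7% of the dividing cells, against 0.379% and 0.806% of the other keratinocytes. Thinned to 5000 UMIs per cell it was seen in 57.9% and 46.1% of the dividing cells.

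The genes of the cell cycle were read from lists of 143 genes besides the 6 chosen ones, 130 of which had at least 50 UMIs over the dividing cells of both libraries. Of these, 120 were at least 2-fold higher than in the other keratinocytes in both libraries, beside 9.07% of all 7383 genes read this way, and 1.44% were at least 2-fold lower in both. The cells were chosen on this contrast, so these counts describe the choice. The 10 genes that stayed below 2-fold in 1 library or both include Kif5b, a motor of the resting cell (1.15-fold and 1.00-fold), and Pttg1, the securin (1.78-fold and 1.33-fold).

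Among the mitotic cyclins, kinases and their partners, 19 of 19 genes read were at least 2-fold higher in both libraries, with a median log2 ratio of 8.12 and 8.03. Cks2, a small partner of the cyclin-dependent kinases, was highest with 489 CPM after CpG ODN and 413 CPM after LPS, against 30.6 and 31.7 CPM in the other keratinocytes. Cdk1, the mitotic kinase itself, had 186 and 195 CPM against 0.727 and 0.410 CPM. Ccnb2 had 188 and 187 CPM, and Ccna2, the cyclin of S and G2 phase, 165 and 114 CPM. Plk1 and Aurkb, kinases of centrosome and chromosome segregation, had 73.7 and 57.6 CPM and 75.4 and 62.1 CPM.

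The kinetochore and checkpoint list gave 19 of 19 with a median log2 ratio of 6.31 and 6.36. Cenpa, the histone that marks the centromere, had 393 and 350.3 CPM against 1.24 and 1.43 CPM, and Cenpe, the kinetochore motor, 264 and 199 CPM. The checkpoint protein Bub3, which resting cells also carry, was 3.16-fold and 3.12-fold higher. The spindle list gave 21 of 22 (median log2 7.85 and 6.55). Its members include Prc1, which bundles the midzone of the spindle, with 334 and 240.0 CPM, and Tpx2, an activator of Aurora A, with 214 and 173 CPM. The condensin and chromosomal passenger list gave 12 of 12 (5.88 and 5.76), with Smc4 at 435 and 396 CPM, Birc5 (survivin) at 366 and 308 CPM and Cdca8 (borealin) at 305 and 270.3 CPM. The list of mitotic exit and cytokinesis gave 13 of 14 (5.15 and 4.72), led by Ube2s, the partner of Ube2c, with 626 and 610.4 CPM, and Anln, a protein of the cleavage furrow, with 216 and 169.5 CPM.

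The genes of DNA replication stood less far from the other keratinocytes. Of 34 genes read, 28 were at least 2-fold higher in both libraries, with a median log2 ratio of 2.16 in each. Dut, Pcna and Rrm1 were the most abundant, Pcna with 111 and 100.2 CPM against 49.9 and 45.0 CPM (2.22-fold and 2.23-fold). Rrm1 and Rrm2, the subunits of ribonucleotide reductase, were 9.41-fold and 8.94-fold and 16.7-fold and 15.6-fold higher. The thymidine kinase Tk1 was the most distant, 32.8-fold and 38.2-fold. The helicase genes Mcm2 to Mcm7 lay between 2.43-fold and 6.65-fold after CpG ODN and between 2.84-fold and 8.20-fold after LPS. Of 10 genes of entry into S phase, 8 were at least 2-fold higher in both, among them Uhrf1, which copies DNA methylation, at 24.8-fold and 37.1-fold, and Clspn, a checkpoint mediator at the replication fork, at 33.6-fold and 38.0-fold.

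Summed over the lists, the mitosis genes outside the rule had 9965 and 8414 CPM against 708 and 683 CPM, and the replication and entry genes 1724 and 1594 CPM against 416 and 396 CPM. In single dividing cells the mitosis level started at 741 CPM after CpG ODN and 630 CPM after LPS, with 10th percentiles of 3056 and 1146 CPM. The other keratinocytes had medians of 708 and 686 CPM and highest values of 2749 and 1629 CPM. Some cells that met the rule thus lay within the range of the other keratinocytes. In 9 of the 162 cells (5.56%, 2.57 to 10.3) and 3 of the 63 (4.76%, 0.993 to 13.3) the replication and entry lists held more UMIs than the mitosis lists. The mitosis lists are longer (88 against 55 genes) and were also the higher in the summed other keratinocytes, so this count does not place cells in a phase. The 6 genes of the rule are late genes, so a cell early in S phase need not reach 10 UMIs. Of the keratinocytes under the threshold, 321 of 3110 (10.3%) and 90 of 706 (12.7%) had a replication and entry level at or above the median of the dividing cells. Over the dividing cells the replication and mitosis levels had Spearman correlations of 0.28 (n = 162) and 0.57 (n = 63), which describe cells of 1 library each that share depth and dissociation.

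The mix moved with the sum of the 6 genes. After CpG ODN, cells with 10 to 19 UMIs had 2315 CPM of the replication and entry lists and 4846 CPM of the mitosis lists, and cells with 80 or more UMIs had 1087 and 14356 CPM. After LPS the same bins had 891 and 1557 CPM and 1946 and 14600.1 CPM, so the replication level was lower at high sums in the CpG ODN library and higher in the LPS library. In the LPS bins 1 cell held 252 of 489 and 574 of 1367 of these UMIs, and without the richest cell of each bin the levels were 518 and 1359.6 CPM, against 2139 and 1064 CPM after CpG ODN, an alternative chosen after the data were seen. Pcna went from 184 to 35.5 CPM across these bins after CpG ODN and from 71.0 to 96.8 CPM after LPS. The LPS bins held 20 and 17 cells, the CpG ODN bins 52 and 42.

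**Figure D2:**
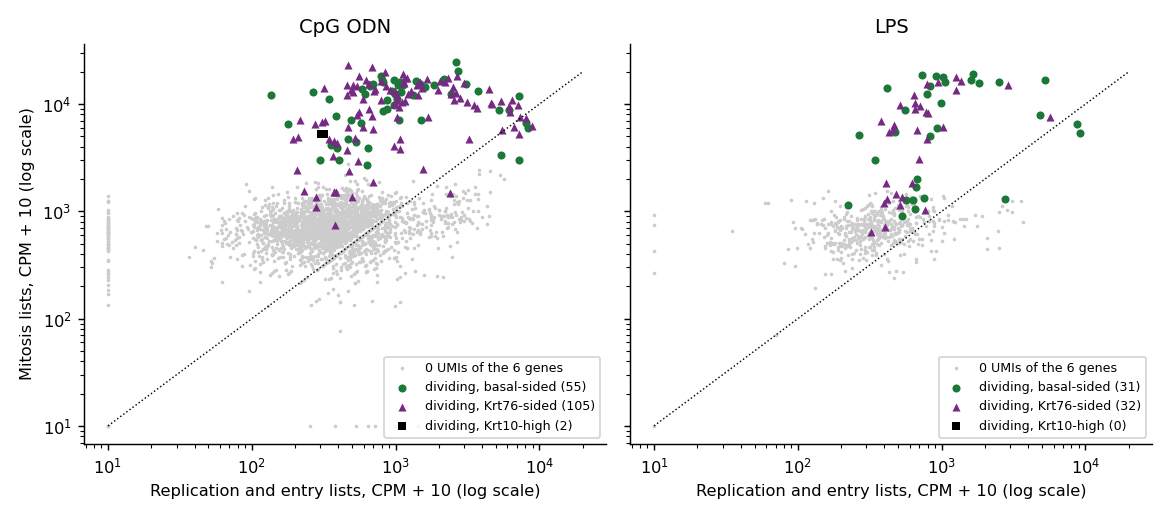
Level of the replication and entry lists (x axis) and of the mitosis lists (y axis) in each dividing keratinocyte, in CPM plus 10 on log axes, with symbols for the layer of the cell a dotted line where both are equal and grey points for the other keratinocytes. Most dividing cells of both libraries lie above the line, and 9 and 3 lie below it. The summed other keratinocytes also had more of the mitosis lists, 708 against 416 CPM after CpG ODN and 683 against 396 CPM after LPS.

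The list of G1 regulators, which holds both brakes and drivers of the step into S phase, was mixed. Of 19 read, 5 were at least 2-fold higher in both libraries, beside 9.07% of all genes, namely Cdkn2d (8.10-fold and 5.83-fold), Cdkn2c (3.49-fold and 2.56-fold) and Cdkn1b (2.50-fold and 2.09-fold), which encode inhibitors of cyclin-dependent kinases, the gene Cdk2 of a kinase that drives S phase (3.23-fold and 3.48-fold) and Rbl1, a relative of the retinoblastoma protein (2.25-fold and 2.16-fold). Cdkn1a, the inhibitor p21 that p53 turns on, had 55.5 and 84.5 CPM in the dividing cells against 155 and 143 CPM in the others, ratios of 0.358 and 0.592. With both sides cut to cells in which Col17a1 had more UMIs than Krt76 and Krt10 together, the basal-sided cut described below, this direction turned. Cdkn1a then had 66.4 against 44.2 CPM (1.50, 1.09 to 2.03) after CpG ODN and 67.9 against 52.0 CPM (1.31, 0.962 to 1.75) after LPS. The G1 cyclin Ccnd1 had 299 and 209.8 CPM against 201 and 200.2 CPM, and Ccnd2 118 and 208 CPM against 129.8 and 157 CPM. With the same cut on both sides Ccnd1 was lower in the dividing cells, at 212 against 359 CPM after CpG ODN and 198 against 328 CPM after LPS.

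Outside these lists, the 10 genes with the largest ratios in both libraries, among 2137 with at least 100 UMIs in each, had roles in several steps of division where a role is known. Stmn1, which destabilizes microtubules, had 973 CPM after CpG ODN and 938 CPM after LPS against 39.4 and 47.3 CPM. Hmgb2, a DNA-bending protein, had 1896 and 1729 CPM against 116 and 107 CPM. Pclaf, a partner of PCNA, was 139-fold and 111-fold higher, Cip2a, an inhibitor of protein phosphatase 2A, 83.9-fold (59.9 to 120.2) and 152-fold (67.5 to 422), and Gas2l3, which links actin to microtubules, 219-fold (126 to 419) and 828-fold (145 to 33015), the last on 13 and 1 UMIs in the other keratinocytes. The histone genes Hist1h2ap and Hist1h2ae were 113-fold and 47.5-fold and 82.2-fold and 29.4-fold higher, although the near-identical copies of this cluster make their counts uncertain. Dlgap5, the long noncoding RNA Lockd and Dbf4, the activator of the replication kinase Cdc7, completed the group.

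**Figure D3:**
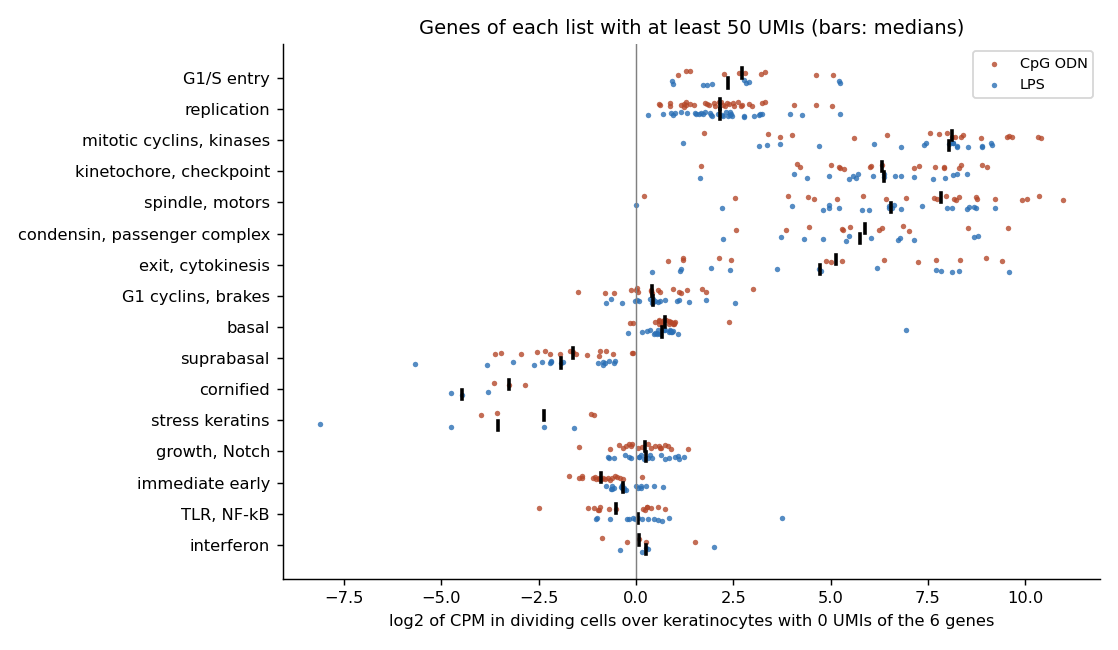
log2 ratio of the CPM in dividing over other keratinocytes for the genes of each list (points) with the list median (line), for both libraries. The mitotic lists have medians between 4.72 and 8.12, the replication list 2.16 in both, and the basal, suprabasal and stress lists lie near or below 1.

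The layer of the dividing cells was read from Col17a1, Krt76 and Krt10, which the rule did not name. A Col17a1 and a Krt76 UMI occurred together in 154 of 162 cells (95.1%) after CpG ODN and in 60 of 63 (95.2%) after LPS. Krt10 was low. B-lineage cells, which should make no keratin, had a Krt76 UMI in 39.8% (CpG ODN) and 34.7% (LPS) of cells at medians of 2949 and 3264.5 UMIs, and 67.2% of their Krt76 UMIs after CpG ODN were in 1 cell. The Krt76 level was above the 95th percentile of those B-lineage cells (619 and 391 CPM) in 110 of 162 dividing cells (67.9%) and 43 of 63 (68.3%). A Col17a1 UMI occurred in 1.74% and 2.78% of the B-lineage cells.

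Col17a1 had 644 CPM in the dividing cells after CpG ODN and 842 CPM after LPS, against 405 and 458 CPM in the other keratinocytes, a ratio of 1.59 and 1.84. It had a UMI in 160 of 162 and 63 of 63 dividing cells, against 75.2% and 78.6% of the others, and thinned to 5000 UMIs per cell the shares were 86.7% and 87.4% against 61.8% and 63.0%. The median dividing cell had 588 and 834 CPM, against 318 and 398 CPM in the median other keratinocyte. As a mean over cells the Col17a1 ratio was nearer 1 in both libraries than that of the sums, with values given in a closing section. Krt76 had 2574 and 1657 CPM against 15042 and 14795 CPM, a ratio of 0.171 and 0.112, and the median dividing cell had 1165 and 918 CPM against 3162 and 2172 CPM in the median other keratinocyte, a narrower gap than that of the sums. Krt10 had 183 and 43.1 CPM against 2013 and 2194 CPM, a ratio of 0.0907 and 0.0196, and 58.7% of its 513 UMIs after CpG ODN came from 1 cell, without which the ratio was 0.0383. Each of the 3 genes went the same way in both libraries, Col17a1 above and both keratins below the other keratinocytes, and these intervals of counting error did not reach 1.

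That direction depends on which keratinocytes stand for comparison. Against the other keratinocytes in which Col17a1 had more UMIs than Krt76 and Krt10 together, called basal-sided here and chosen after the values were seen, the dividing cells had less Col17a1 (0.497 and 0.684) and more Krt76 (5.82 and 4.61). Those cells were chosen on the same genes and the dividing cells were not, so this direction is fixed by the choice. With both sides cut the same way, the basal-sided dividing and other keratinocytes had 458 and 442 CPM of Krt76 after CpG ODN and 352 and 359.5 CPM after LPS, and 997 against 1296 CPM and 1161 against 1232 CPM of Col17a1. The cut between layers compares UMIs of different genes, which are not caught equally well, so it orders cells and gives no molar ratio.

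By this cut, 55 of 162 dividing cells (34.0%, 26.7 to 41.8) were basal-sided after CpG ODN and 31 of 63 (49.2%, 36.4 to 62.1) after LPS, against 665 of 2374 (28.0%) and 186 of 496 (37.5%) of the others. The next layer, called Krt76-sided, was not basal-sided and had Krt10 under 1000 CPM, and it held 105 (64.8%) and 32 (50.8%) of the dividing cells. As a remainder it includes the 5 and 1 cells in which Col17a1 equalled Krt76 and Krt10 together. It also holds cells with little Krt76, among them a CpG ODN cell with 0 Krt76 UMIs and an LPS cell with 3 in 28970 UMIs. Cells with at least 1000 CPM of Krt10, called Krt10-high, were 2 (1.23%) and 0 (a count of 0 allows up to 4.76%), against 422 (17.8%) and 108 (21.8%) of the other keratinocytes. At least 10000 CPM of Krt76 was reached by 4 dividing cells (2.47%) and 0, against 32.9% and 33.7% of the others.

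**Figure D4:**
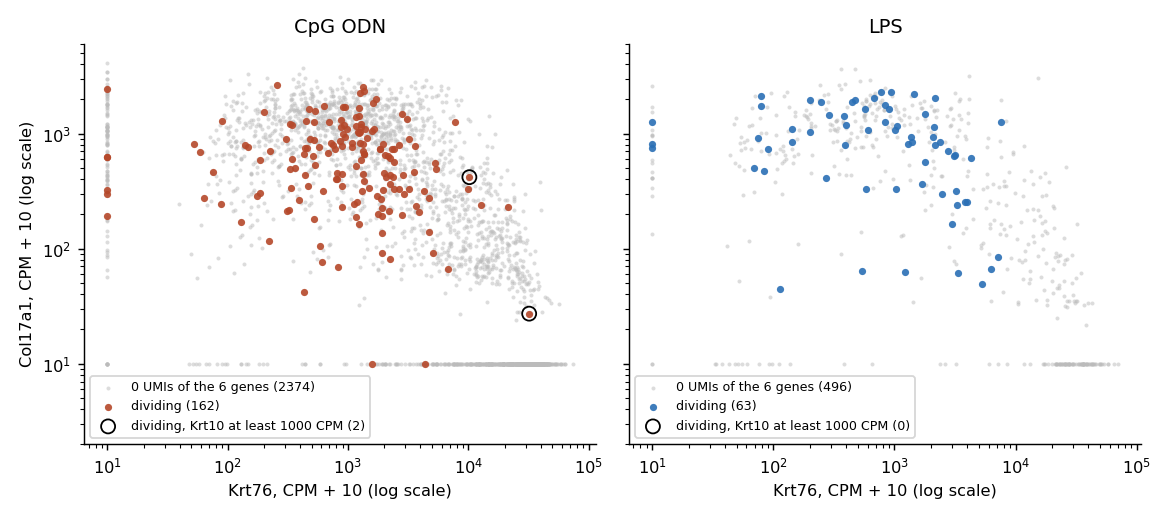
Krt76 (x axis) and Col17a1 (y axis) in each dividing keratinocyte of the CpG ODN and LPS libraries, in CPM plus 10 on log axes, with grey points for the other keratinocytes and circles around the 2 dividing cells with at least 1000 CPM of Krt10. A UMI of both genes is in 154 of 162 and 60 of 63 dividing cells, Krt76 exceeds the level in B-lineage cells in 67.9% and 68.3%, and both circled cells are in the CpG ODN library.

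Turned around, the share of dividing cells within a layer was 5.88% (4.46 to 7.59) of the basal-sided, 5.73% (4.71 to 6.89) of the Krt76-sided and 0.398% (0.0482 to 1.43) of the Krt10-high keratinocytes after CpG ODN. After LPS it was 10.5% (7.28 to 14.6), 9.61% (6.67 to 13.3) and 0 of 142, which allows up to 2.11%. The first and second layer did not differ beyond counting error in either library, while the Krt10-high layer lay below both. At 10000 UMIs per cell the shares were 9.17%, 5.65% and 0.208% after CpG ODN and 8.44%, 6.53% and 0 after LPS. These CpG ODN shares rest on 403 of the 935 basal-sided cells, since the shallower ones were left out, and the LPS shares on about 23.2 and 21.5 dividing cells. At 5000 UMIs per cell, with the threshold lowered to 5 UMIs of the 6 genes, the shares were again read. The basal-sided and Krt76-sided shares were 6.81% of 896 and 5.81% of 1783 cells after CpG ODN and 8.13% and 6.55% after LPS. The basal-sided share was the higher in each of these settings, by an amount that moved between them. The depth, the threshold and the cells kept changed together from 10000 to 5000 UMIs.

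Within the dividing cells the layers differed in other genes as well. Itga6 and Itgb4, the integrin pair of the hemidesmosome, had 414 and 314 CPM in the basal-sided and 259 and 193 CPM in the Krt76-sided dividing cells after CpG ODN, and 395 and 333 against 208 and 153 CPM after LPS. Ccnd2 had 168 against 102 CPM and 335 against 79.9 CPM. Krt15, a basal keratin, went the other way, with 922 against 1148 CPM and 863 against 1756 CPM, and Krt16 had 293 against 574 CPM and 76.8 against 513 CPM. Igfbp3, which binds insulin-like growth factors, did not keep its direction, with 204 against 104 CPM after CpG ODN and 151 against 223 CPM after LPS. The replication and entry lists had 1929.8 and 1693 CPM in the basal-sided and Krt76-sided dividing cells after CpG ODN and 2273 and 907 CPM after LPS, and the mitosis lists 11189.5 and 9652 CPM and 9259 and 7559 CPM. The summed lists were thus higher on the basal side in both libraries, while Cdc20 had 415 against 401 CPM after CpG ODN and 325 against 417 CPM after LPS. Of the 2042 replication and entry UMIs of the 31 basal-sided LPS cells, the richest 4 cells held 574, 264, 252 and 231.

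The 2 dividing cells with at least 1000 CPM of Krt10, both after CpG ODN, had 28871 CPM of Krt76, 17122 CPM of Krt13 and 73.6 CPM of Col17a1 over both cells, beside 707 CPM of Mki67 and 5212 CPM of the mitosis lists. These sums are mainly those of the larger cell, with 58112 UMIs, 1861 of Krt76, 1 of Col17a1 and 303 of the mitosis lists, whereas the other had 9811 UMIs, 100 of Krt76, 4 of Col17a1 and 51 of the mitosis lists. All 1163 Krt13 UMIs were in 1 cell. Without the Scrublet calls the Krt10 ratio after CpG ODN was 0.0387, close to the 0.0383 without the cell richest in Krt10.

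Genes of the basal layer were higher than in the average other keratinocyte, with a median log2 ratio of 0.75 and 0.67 over 20 genes read, beside 0.34 and 0.33 over all genes. Only Postn, which is not a keratinocyte gene alone, was at least 2-fold higher in both libraries, beside 9.07% of all genes. Of its UMIs, 97.9% and 93.3% came from 1 cell each. With both sides cut to the basal-sided layer the median was -0.34 and -0.13, beside 0.20 in each library over all genes, of which 6.12% were at least 2-fold higher in both libraries and 0.325% at least 2-fold lower. Dst, a plakin that ties keratin to the hemidesmosome, had 818 and 586 CPM against 442 and 419 CPM. Trp63, the transcription factor of stratified epithelium, had 224 and 233 CPM against 137 and 139.5 CPM.

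Of 17 suprabasal genes read, 10 were at least 2-fold lower in both libraries, beside 1.44% of all genes, with a median log2 ratio of -1.61 and -1.93. Krt13, a keratin of the upper layers, had 946 and 837 CPM against 4779 and 5160.3 CPM. Sbsn and Krtdap, secreted proteins of the differentiating layers, had ratios of 0.129 and 0.0705 and of 0.215 and 0.189. Desmoplakin (Dsp), the plakin of desmosomes in every layer, had 1911 and 1307 CPM against 2007 and 1898 CPM. With both sides cut to the basal-sided layer the list median was -0.02 and -0.16, and Krt13 had 309 against 450.1 CPM and 550.0 against 732 CPM. Sbsn was at 0.645 and 0.792 with this cut, while Krtdap turned to 1.46 (1.23 to 1.73) and 3.03 (2.54 to 3.61). The 3 cornified genes read, Sprr1a, Tgm3 and Spink5, were at least 2-fold lower in both libraries. All 4 stress keratins read were too, with Krt16 at 612 and 294 CPM against 7221 and 7886 CPM and Krt6a at 4288 and 2803 CPM against 9027 and 8449.8 CPM. With both sides cut to the basal-sided layer the stress keratin list summed to 3766 against 4222 CPM after CpG ODN and 1472 against 3828 CPM after LPS, with Krt16 at 293 against 356 CPM and 76.8 against 313 CPM, so the gap was narrow after CpG ODN. Krt6a and Krt6b share nearly identical sequence, so their counts are uncertain. Of the 2137 genes that reached 100 UMIs in each library, the 10 with the lowest ratios in both were Krt16, Sbsn, Selenbp1, Krt76, Krt13, Krtdap, Krt24, Fam25c, Mt4 and Ly6d, from 0.0847 and 0.0373 for Krt16 to 0.258 and 0.219 for Ly6d.

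A group of genes chosen after their values were seen marked the dividing cells without being known parts of the division machinery. Epcam, the epithelial adhesion molecule that stratified epithelium mostly lacks, had 186 CPM after CpG ODN and 156 CPM after LPS against 21.3 and 31.3 CPM. It had a UMI in 77.8% and 87.3% of the dividing cells against 20.4% and 32.1% of the others, and thinned to 5000 UMIs per cell in 52.0% and 50.1% against 9.67% and 10.2%. With both sides cut to the basal-sided layer it was 7.10-fold and 4.27-fold higher. Ptn, the growth factor pleiotrophin, had 481 and 562 CPM against 86.5 and 91.3 CPM, and was 2.43-fold and 2.84-fold higher with that cut. Fbln1, a matrix protein, had 48.4 and 59.3 CPM against 11.5 and 14.0 CPM. Within the dividing cells Epcam had no common order over the layers, with 204 and 181 CPM on the basal and Krt76 side after CpG ODN and 139 and 172 CPM after LPS, whereas Ptn was higher on the basal side (606 against 444 CPM and 717 against 406 CPM).

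Markers of other cell types were read beside these values. The 10 B-lineage genes summed to 127 CPM in the dividing cells after CpG ODN and 0.560 CPM after LPS, against 9.32 and 0.614 CPM in the other keratinocytes. They were thus higher in the dividing cells after CpG ODN, and 9 of the 10 were at 0 in the LPS cells. At least 5 UMIs of them were in 7 of the 162 cells and 0 of the 63. Col1a1, Col1a2 and Col3a1 together had at least 5 UMIs in 1 cell of each library. The myeloid list summed to 3.91 and 6.71 CPM with 5 of 10 genes at 0 in each library, against 20.7 and 976 CPM in the other keratinocytes, where S100a8 and S100a9, which keratinocytes can also make, held 7790 and 6477 UMIs after LPS. The vessel list summed to 6.05 and 10.6 CPM with 4 and 3 of 7 at 0. Ptprc, carried by leukocytes, had 9.61 and 0 CPM. The red cell list summed to 697 and 787 CPM against 151 and 352 CPM in the other keratinocytes. Its hemoglobin gene Hbb-bs had 487 and 559 CPM, 94.0% of it in 1 cell after LPS. Dcn, a gene of the fibroblast list, had 364 and 581 CPM and a UMI in 55.6% and 52.4% of the dividing cells, against 157 and 227 CPM in the other keratinocytes (2.32-fold and 2.55-fold higher) and 519 and 775 CPM in the basal-sided ones. The fibroblast list of 7 genes summed to 443 and 645 CPM against 199 and 229 CPM, so it was higher in the dividing cells beside Ptn and Fbln1, and its part in those values was not tested. The list of simple and gland epithelium (Epcam, Krt7, Krt8, Krt18 and Krt19) summed to 214 and 179.6 CPM against 31.7 and 49.9 CPM, most of it Epcam, and both genes read, Epcam and Krt8, were at least 2-fold higher in both libraries. Its keratins were low, with Krt8 at 10.3 and 12.9 CPM and Krt19 at 0.712 and 0.560 CPM. Leaving out the cells with 5 UMIs of B-lineage or collagen genes (8 and 1 cells), an alternative chosen after the data were seen, gave shares of 4.78% and 8.07%.

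The levels after CpG ODN and after LPS were set side by side in the dividing cells alone. Of 7383 genes with at least 50 UMIs over both libraries, 65 (0.880%) were at least 2-fold higher after CpG ODN and 50 (0.677%) at least 2-fold lower, and the median log2 ratio was 0.01. Few genes differed by that much, and those named need reading beside the cells that carry them. H2-Aa (134 against 1 UMIs, ratio 85.2), Cd74 (482 against 4, ratio 76.6) and H2-Ab1 (119 against 4, ratio 18.9), which present antigen on class II molecules, were highest. Without the cells with B-lineage or collagen UMIs the ratios were 1.98 (3 against 1 UMIs, 0.159 to 104), 3.97 (24 against 4, 1.36 to 15.7) and 1.49 (9 against 4, 0.415 to 6.61), of which only the interval of Cd74 stayed above 1. Ccl2, a monocyte chemokine, was lowest with 9 against 135 UMIs (ratio 0.0424), 91.9% of the LPS UMIs in 1 cell, and the ratio without the B-lineage and collagen cells was 0.481 (8 against 11 UMIs, 0.168 to 1.31).

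The other genes with high ratios were keratin and barrier genes and a few of single function. Krt6b had 157 against 10.1 CPM (ratio 15.6, 9.74 to 26.5), with 57.8% of the CpG ODN UMIs in 1 cell and a ratio of 7.52 without the richest cell of each library. Krt10 was 4.24 (2.0 without those cells), Spink5, a protease inhibitor of the cornified layer, 2.73 (1.94), and Krt17, a stress keratin, 2.25 (2.16). The direction of these 3 genes was not stable, since Krt10 turned to 0.737 and Spink5 to 0.919 without cells with 2 UMIs of other-type markers, and Krt17 to 0.323 with the keratin criterion at 0.5%. Gclc, which makes the precursor of glutathione, had 176 against 76.7 CPM (2.30, 1.90 to 2.80). Its ratio ran from 1.52 to 7.81 over 13 alternative settings, and 18.8% of its CpG ODN UMIs were in 1 cell. Among those settings, the minimums of 200 and 1200 detected genes left the dividing cells as they were. Peg3, an imprinted zinc finger gene, had 92.5 against 40.8 CPM (2.27, 1.74 to 2.98), spread so that no cell held more than 4.23% and 12.3% of its UMIs, and kept a ratio from 1.93 to 2.53 over 13 alternative settings. Hist1h2ae had 208 against 86.2 CPM (2.42), and its ratio ran from 1.77 to 8.31 over the same settings.

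The genes with low ratios were led, after Ccl2, by Barx2, a homeobox gene (11.4 against 61.5 CPM, 0.185), and Mt3, a metallothionein (55.5 against 166 CPM, 0.335), of which 42.7% and 44.3% of the LPS UMIs came from 1 cell. Both turned direction with the keratin criterion at 2%, to 2.11 and 2.39. B2m, the light chain of class I molecules, had 38.8 against 93.4 CPM (0.415) and a UMI in 40.1% and 65.1% of the cells, or 7.53% and 12.9% thinned to 2000 UMIs per cell. Atf3, a stress-induced transcription factor, had 151 against 349.7 CPM (0.432), Plk2 28.5 against 61.5 CPM (0.463) and Ifrd1 33.1 against 69.4 CPM (0.477). Hist1h1c, a linker histone, was at 0.464, Cpe, which trims peptide hormones, at 0.490, and Lars2, the mitochondrial leucine tRNA ligase, at 0.492. Over 13 alternative settings the highest ratios were 0.812 (B2m), 0.938 (Atf3), 0.965 (Plk2), 0.963 (Ifrd1), 0.738 (Hist1h1c), 0.863 (Cpe) and 0.630 (Lars2). Each stayed below 1, and those of Atf3, Plk2 and Ifrd1 came close to it. The linker histone had a UMI in 53.7% and 81.0% of the cells, or 27.8% and 46.3% thinned to 5000 UMIs.

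**Figure D5:**
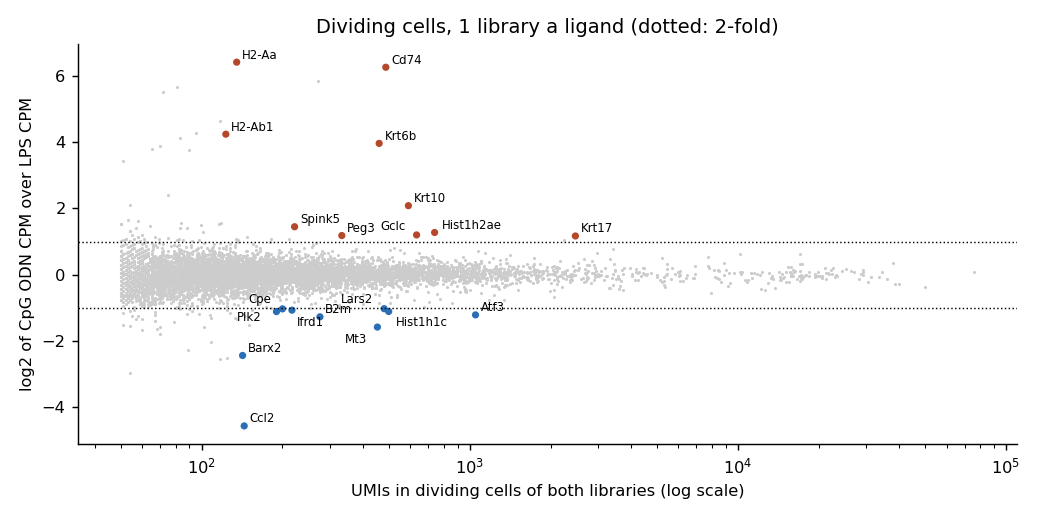
log2 ratio of CpG ODN over LPS (y axis) against the UMIs of the gene over the dividing cells of both libraries (x axis, log), with the 20 named genes marked. The cloud is centred at a median of 0.01 and widens where UMIs are few.

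The chosen cell cycle genes were at or above the LPS level in the CpG ODN cells, from 1.08 (0.978 to 1.19) for Cdc20 through 1.18 for Ccnb1, 1.21 for Ube2c and 1.32 for Mki67 to 1.56 (1.44 to 1.69) for Cenpf, with 1.44 (1.25 to 1.66) for Hmmr. The rule used the 6 genes, so their ratios are a description of the choice, and the CpG ODN cells were the shallower. Of the 130 cell cycle genes read outside the rule, 103 were higher after CpG ODN (median log2 0.22), beside 3759 of all 7383 genes. With at least 20 UMIs of the 6 genes, 42 of 86 mitosis genes and 7 of 35 replication and entry genes were higher, and with the scaled threshold 30 of 86 mitosis genes. Fbxo5, an inhibitor of the anaphase-promoting complex, had a ratio of 2.42 and Ccnf, a cyclin of the F-box family, 2.11. The median of the mitosis lists was 0.28 and lay between -0.10 and 1.50 over 13 alternative settings, so its direction is not settled.

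Genes of the Toll-like receptor and NF-κB list were mostly below the counting limit. The receptor genes Tlr1, Tlr7, Tlr8 and Tlr9 had 0 UMIs in the dividing cells of both libraries, as had Il1a, Il1b and Lcn2, which allows up to 3 UMIs for each, while Tlr2 had 3 and 6 UMIs and Tlr4 3 and 1. Of the 15 genes of the list that could be read, 14 were lower after CpG ODN than after LPS (median log2 -0.57), and 2 at least 2-fold, Ccl2 and Cxcl2, beside 3624 lower (and 0.677% at least 2-fold lower) of all 7383 genes read. The median was below 0 in each of 13 alternative settings (-0.84 to -0.15), and 12 of 20 genes read were lower with the keratin criterion at 0.5%. The gap was small in the median dividing cell, in which the list summed to 494 CPM after CpG ODN and 525 CPM after LPS, and wide in the richest cells, with 90th percentiles of 1010 and 2072 CPM and highest values of 3345 and 7831 CPM. Nfkbia, the inhibitor that NF-κB itself turns on, had 142 against 255 CPM (0.558, 0.487 to 0.639), Nfkbiz 52.7 against 99.0 CPM (0.532), the adhesion molecule Icam1 50.9 against 101 CPM (0.505) and Cxcl1, a neutrophil chemokine, 27.4 against 53.7 CPM (0.510). In the other keratinocytes the same 15 genes had a median of -0.20, with 12 of them lower.

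The immediate early genes, transcription factors and heat shock genes that growth factors, stress and tissue dissociation turn on within minutes, showed a like order. Of 21 read, 20 were lower after CpG ODN (median log2 -0.47, from -0.57 to -0.03 over 13 alternative settings), and 2 at least 2-fold, Atf3 and Fosl1, beside 3624 of 7383 and 0.677% over all genes read. Without cells with 2 UMIs of other-type markers 11 of 18 were lower. Fos had 712 against 907 CPM, Jun 687 against 936 CPM and Dusp1 229.5 against 391 CPM. In the other keratinocytes 5 of the same 21 genes were lower after CpG ODN and the median was 0.07. Summed, the list had 5557 CPM in the dividing and 10375 CPM in the other keratinocytes after CpG ODN (0.536) and 7248 and 9531 CPM after LPS (0.760), so the dividing cells were lower in both libraries. Whether the gap between the libraries differs between dividing and other cells was not tested, since each library is a single sample, and the part of dissociation was not tested.

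The stress keratins went the other way, with 4 of 4 higher after CpG ODN, 3 of them at least 2-fold (Krt6b, Krt17 and Krt16), and a median log2 of 1.12 (0.14 to 1.17 over the alternatives), beside 3759 of 7383 higher and 0.880% at least 2-fold higher over all genes read. With the keratin criterion at 0.5% 4 of 5 were higher, and without cells with other-type markers 2 of 3. The Krt76-sided layer held 64.8% (56.9 to 72.1) of the dividing cells after CpG ODN and 50.8% (37.9 to 63.6) after LPS, intervals that overlapped. Of the 1719 Krt16 UMIs after CpG ODN, 361 were in the 2 Krt10-high cells. Within the Krt76-sided dividing cells, an alternative chosen after the data were seen, the ratio of CpG ODN to LPS was 1.12 (1.00 to 1.25) for Krt16, 1.04 for Krt6a, 2.04 for Krt17 and 10.9 (5.16 to 27.5) for Krt6b, and within the basal-sided it was 3.81, 2.26, 3.29 and 1.28 (0.515 to 3.19). Of the 441 Krt6b UMIs after CpG ODN, 371 were in 2 cells, 255 of them in a single Krt10-high cell. The Krt76-sided cells held 169 after CpG ODN and 7 after LPS, so the 10.9 rests mostly on 1 cell. The other keratinocytes had a median of -0.08 for the same 4 genes. Of the 5 interferon genes read, 4 were lower after CpG ODN (median -0.50), and the median ran from -0.60 to 0.29 over the alternatives, so it turned with the setting. Ifi27l2a had 50.5 against 83.9 CPM and Ifi27 109 against 154 CPM. The basal genes had a median of -0.08 (-0.12 to 0.03 over the alternatives) and the suprabasal genes 0.33 (-0.24 to 0.51), and both turned with the setting. Of the growth factor and Notch genes, 20 were read and 0 passed 2-fold either way between the libraries. Over all genes 0.880% passed as higher and 0.677% as lower, so a count of 0 among 20 does not set these genes apart. Notch1 was at 195 and 209 CPM, Fgfr2 at 101 and 123 CPM, Egfr at 57.3 and 50.4 CPM, Hes1 at 106 and 180.2 CPM and Myc at 53.0 and 91.8 CPM.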

How the data were processed

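For each of the 2 libraries the authors deposited raw counts of UMIs per gene and barcode, not normalized, in filtered matrices whose headers name Cell Ranger 4.0.0. The study describes a droplet kit that reads the 3′ end of transcripts. The genome build is not given in the sources used here. Of 32285 gene identifiers, 32235 were in GENCODE M21 (GRCm38). Promoter windows are from RefSeq (GRCm38.p6).

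Cells were chosen by the rule in the text. UMIs were summed over the cells of a group and given as CPM. Ratios carry exact conditional binomial intervals, shares Clopper-Pearson intervals and levels exact Poisson intervals, all at 95%, for counting error only. For a count of 0 the upper limit given is that of 3 counts. Genes were read with at least 50 UMIs over the dividing cells of both libraries and called at 2-fold. Depth ranges from 4943 to 119207 UMIs in a dividing cell, and shares were also given at 10000 and 5000 UMIs per cell. B-lineage cells, used for free RNA, had at least 2 UMIs of Cd79a, Cd79b and Ms4a1 together and failed the keratin criterion.

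The members and the lists (27 lists, 404 of 406 genes matched) were chosen with earlier results of these data known. Genes named are the 6 most abundant of a list or fewer, and the 10 highest and 10 lowest ratios among genes with at least 100 UMIs in both libraries (dividing against other) or in 1 (CpG ODN against LPS, with a UMI in both), leaving out mitochondrial, ribosomal, immunoglobulin and hemoglobin genes, and for the first comparison the cell cycle lists. Other genes were chosen after their values were seen, as were the layer groups. Some list members are not reported here. The interval code was tested on simulated data. Analyses used Python 3.11.15, numpy 2.4.6, scipy 1.17.1, pandas 2.3.3 and scanpy 1.11.5 (Scrublet), with plots in matplotlib 3.10.9.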

Additional observations from a re-analysis of the deposited data

Results flagged for a closer look

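The dividing over other keratinocyte ratio of 3 named genes had its counting interval below 1 after CpG ODN and above 1 after LPS. Ccl2 was 0.474 (0.214 to 0.914) and 13.5 (10.2 to 18.0), with 91.9% of the LPS UMIs in 1 cell that also carried collagen genes. Plk2, a kinase of the stress response, was 0.544 (0.430 to 0.681) and 1.25 (1.01 to 1.53). Ifrd1, a transcriptional coregulator, was 0.618 (0.496 to 0.761) and 1.35 (1.11 to 1.64), and 20 of its 124 LPS UMIs were in 1 cell that carried collagen genes. Without the richest dividing cell of each gene, an alternative chosen after the data were seen, the LPS ratios were 1.12 (0.537 to 2.11), 1.05 (0.833 to 1.31) and 1.15 (0.929 to 1.42) for Ccl2, Plk2 and Ifrd1. Each LPS ratio stayed above 1 with an interval that now reached 1, and that of Ccl2 fell most. The CpG ODN ratios were 0.372, 0.496 and 0.588. The difference between the libraries was not tested, since each ligand has 1 library.

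Cells that the comparisons did not use also carried the division genes. At least 10 UMIs of the 6 genes were found in 110 cells after CpG ODN and 14 cells after LPS in which Krt5 and Krt14 held under 1% of the UMIs, at medians of 11932.5 and 30620 UMIs per cell.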

How the results depend on the processing

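No paired analysis was possible because the design holds a single library of each ligand, and for the same reason no replicate could be left out. Of 591 values under alternative settings, the values that answer a comparison stayed within their counting interval (counts of genes within 1.5 times) in 138 cases, moved in 82 and turned in 6, and those of single named genes did so in 287, 73 and 5. The minimum of 200 or 1200 detected genes moved none of the values that answer a comparison. It could not change the dividing cells, since 0 barcodes under 800 genes met the rest of the rule and the dividing cell with the fewest genes had 1650. For ratios between the libraries these settings repeat the main value, and they are counted among the alternative settings. Of 20 genes named between the libraries, 15 kept their direction in every setting that gave a ratio, and 3 stayed past 2-fold in those (Ccl2 in 12, Cd74 in 11 and Krt6b in 13 settings). Where a cause is not part of a setting, the cause was not tested.

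The settings that turned the direction were those with only basal-sided other keratinocytes (Col17a1 0.497 and 0.684, Krt76 5.82 and 4.61, Krt10 4.84 and 1.38, CpG ODN and LPS), since these were chosen for the same genes. Among named genes, Krt17 turned to 0.323 with the keratin criterion at 0.5%, Barx2 to 2.11 and Mt3 to 2.39 at 2%, and Krt10 to 0.737 and Spink5 to 0.919 without the cells with 2 UMIs of other-type markers, which left 58 and 15 cells because Dcn and Trbc2 UMIs are common in keratinocytes here.

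After CpG ODN the share of dividing cells was 3.38% with the keratin criterion at 2%, 7.89% and 3.36% with at least 5 and 20 UMIs of the 6 genes, 7.18% with the threshold scaled to depth and 3.10% without cells with 2 UMIs of other-type markers. After LPS it was 12.5%, 5.59% and 6.07% with 5 UMIs, 20 UMIs and without those cells. Thinned to 10000 UMIs with the threshold of 10 it was 6.04%, and thinned to 5000 with a threshold of 5 it was 5.97%. The basal-sided share after CpG ODN was 25.9% at the 2% criterion, and 14.8% or 54.9% where Col17a1 had to reach 2 or 0.5 times the keratins.

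With the keratin criterion at 2%, the ratios after CpG ODN and LPS were 1.46 and 1.62 (Col17a1), 0.281 and 0.192 (Krt76), 0.267 and 0.0372 (Krt10), 3.02 and 2.76 (replication and entry lists) and 13.4 and 9.90 (mitosis lists). At 0.5% Krt76 was 0.183 and 0.0926, and Krt10 after CpG ODN 0.101. With 5 UMIs of the 6 genes, Krt76 was 0.194 and 0.147, Krt10 after LPS 0.0649, replication after CpG ODN 3.79 and mitosis 11.0 and 9.23. With 20 UMIs, Col17a1 after LPS was 1.63, Krt76 after LPS 0.0950, Krt10 after CpG ODN 0.100, replication 3.70 and 4.81, mitosis 16.3 and 16.8, and 0.909% of the CpG ODN cells had more replication than mitosis UMIs. With the scaled threshold, Col17a1 after CpG ODN was 1.75, Krt76 0.163 and 0.0922, Krt10 after CpG ODN 0.0816, replication after CpG ODN 3.73 and mitosis 12.7 and 14.2.

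Without cells with 2 UMIs of other-type markers, Col17a1 was 1.75 and 2.49, Krt76 0.0948 and 0.155, Krt10 after CpG ODN 0.0257, replication 4.36 and 3.46 and mitosis 14.7 and 6.00. Without Scrublet calls, Krt76, Krt10 and mitosis after CpG ODN were 0.132, 0.0387 and 14.3. Against all keratinocytes under the threshold, Col17a1 after CpG ODN was 1.51 and Krt76 0.183 and 0.120. Without the B-lineage and collagen cells, Krt76 after CpG ODN was 0.177. As a mean over cells, Col17a1 was 1.10 and 1.43, Krt76 0.193 and 0.155, Krt10 after LPS 0.0327, replication 3.57 and 2.90 and mitosis after LPS 11.1. Without the richest cell of the gene, Krt76 was 0.130 and 0.102 and Krt10 after CpG ODN 0.0383.

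The count of genes at least 2-fold higher after CpG ODN (65) was 99 with the criterion at 0.5%, 133 without cells with other-type markers, 212 and 11 with a minimum of 20 and 200 UMIs per gene and 104 without the richest cell. The count lower (50) was 29 at the 2% criterion and 192 and 7 with those minimums. Without the B-lineage and collagen cells 46 of the 65 and 41 of the 50 genes stayed past 2-fold.

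A late-gene threshold in UMIs misses cells in early S phase, genes under 50 UMIs were not read, and with 63 cells after LPS a single cell held most UMIs of some genes, among them 91.9% of those of Ccl2.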

Other observations

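With dividing and other keratinocytes both cut to the basal-sided layer (55 against 665 cells after CpG ODN and 31 against 186 after LPS), an alternative chosen after the data were seen, 452 of 7383 genes (6.12%) were at least 2-fold higher in both libraries and 24 (0.325%) at least 2-fold lower. The cell cycle lists held 107 of the 452. The mitosis lists outside the rule had a median log2 ratio of 6.34 and 5.62 and the replication and entry lists 1.44 and 1.88. Pcna was 1.81-fold and 2.83-fold above the basal-sided others, and the helicase gene Mcm2 1.61-fold (0.901 to 2.73) and 2.14-fold (1.18 to 3.77). Cdkn2c, an inhibitor of Cdk4 and Cdk6, was 16.3-fold and 8.69-fold higher, the receptor gene Notch1 1.36-fold and 1.50-fold, and Erbb3, a receptor of neuregulins, 2.20-fold and 1.72-fold.

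Lower with this cut were Ccnd1 (0.591 and 0.605), Ccnd2 (0.364 and 0.673), Igfbp3 (0.523 and 0.427), Ccn1, a target of YAP (0.370 and 0.415), and the integrin gene Itga6 (0.811 and 0.821). The interval reached 1 after LPS for Itgb4 (0.849 and 0.989) and the laminin gene Lamb3 (0.768 and 0.928), and Krt17 was at 0.970 (0.905 to 1.04) after CpG ODN and 0.269 after LPS. These genes were picked from the lists after their values were seen.

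Lmnb1, the lamin B1 of the nuclear envelope, had 186 CPM after CpG ODN and 143 CPM after LPS in the dividing cells against 19.5 and 19.2 CPM in the other keratinocytes, ratios of 9.53 and 7.44, and was also chosen after its values were seen.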
